A study of Mus musculus with 2 samples.

Results

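The intermediate zone was the lung tissue lying 300 to 500 µm from the core of 4T1 metastases in a single Visium section, an assay in which a grid of barcoded spots captures polyadenylated RNA from the tissue above each spot. It comprised 125 of the 1104 spots of that section with at least 1000 counts, and of the 2965 such spots in both sections of the study. The core was chosen by measured values. All spots were ranked by the mean log1p of counts per 10000 (CP10k) of Myc, Csn3, Etv4, Mmp3 and AA467197, and a spot among the top 80 was kept if at least 2 of its 6 neighbours were also among them. The last spot inside the top 80 scored 0.579 and the first outside scored 0.573, so there was no gap at this boundary. Distance was counted in steps on the hexagonal grid, nominally 100 µm each. The 64 core spots were surrounded by a margin of 76 spots at 1 to 2 steps, the intermediate zone at 3 to 5 steps, an outer band of 255 spots at 6 to 9 steps and 584 reference spots at 10 or more steps.

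4T1 is a mouse mammary carcinoma line that spreads from the mammary fat pad (m.f.p.) to the lung without further manipulation. Interferon-γ, secreted by T and NK cells, acts through transcription factors such as IRF1 and induces guanylate-binding proteins, immunity-related GTPases, the class II transactivator and the chemokines CXCL9 and CXCL10, which attract cells that carry the receptor CXCR3. The parenchyma that metastases grow into consists of thin AT1 cells, surfactant-producing AT2 cells, capillaries and resident macrophages, whereas club and ciliated cells line the airways and make very abundant secretory transcripts.

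The metastatic section came from the lung of a 6 to 8 week old female Balb/c mouse that had received 4T1 cells in the m.f.p. and was killed after 21 to 23 days. The control section came from the lung of a mouse without tumour, and both lungs were fresh-frozen. There was 1 section per condition, so spots are not replicates, no test between conditions or zones was possible, and all intervals given here are exact 95% intervals that cover counting error only. Spots of the intermediate zone had a median of 11058 counts and reference spots 10672.5, and the zone held 1535340 counts in all against 7229142. The array design gave the sections 855 shared barcodes, which are positions and not shared cells. Each spot covers several cells, and fewer cells of a type cannot be told apart from less RNA per cell.

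The zone surrounded a pair of foci of very unequal size, called metastases here. Of the 64 core spots, 63 belonged to a large metastasis at the tip of the section and 1 to a small metastasis deeper in the tissue, with 58 intermediate spots nearest the large and 67 nearest the small. The small one was named by the core rule alone, from 1 spot with a rule score of 0.716, and was not checked against histology. The rule score had a median of 0.119 in the intermediate zone against 0.863 in the core and 0 in the reference. Its maximum of 0.838 in the zone came from the 4 top 80 spots with too few neighbours to be core. Csn3, a casein gene, had 0 counts in the zone, which allows up to 3, and 0.726 CP10k in the core. Etv4, an ETS-family transcription factor, was at 1.11 CP10k in the core, 0.156 in the zone and 0.0498 in the reference, and Mmp3, a matrix metalloproteinase, at 3.20, 0.156 and 0.0332. Myc fell off less steeply, at 2.97, 0.599 and 0.206 CP10k. Some transcript of the tumour rule genes was thus present in the zone, and values without the spots that held any of Csn3, Etv4, Mmp3 or AA467197 are given where they bear on a result. A separate list of 8 epithelial and growth genes known from 4T1 cells, such as Epcam and Krt8, did not mark the core, where it stood at 1.01 times the reference, and was not used.

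**Figure D1:**
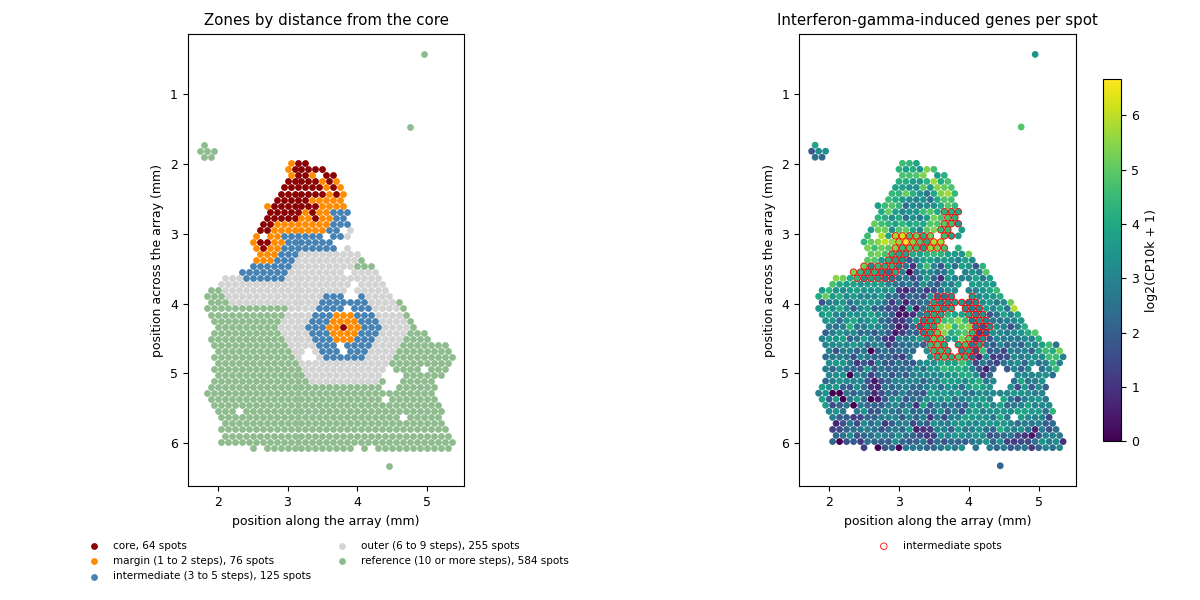
Positions of the spots of the metastatic section in mm, coloured by zone (left) and by the log2(CP10k + 1) of the summed interferon-γ-induced genes (right, intermediate spots outlined in red). The 58 intermediate spots of the large metastasis form a band across the tip of the section and the 67 of the small metastasis a ring, and the highest interferon-γ-induced spot, at 101 CP10k, lies in the band of the large metastasis.

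Airway content differed between the groups and was checked first. Genes of secretory and ciliated airway cells made up 12.6% of the counts in the intermediate zone and 22.6% in the reference, mostly through Scgb1a1, the club cell secretoglobin, which alone made 21.5% in the reference. The share climbed with distance, from 0.343% at step 1 to 3.75% at step 3, 14.0% at step 4, 17.5% at step 5 and 31.1% at step 9. The groups around the 2 metastases were unlike in this respect. The intermediate spots of the large metastasis held 1.67% airway counts and those of the small metastasis 22.2%, close to the reference. Each result was therefore also computed in the 96 intermediate and 259 reference spots at or below the pooled median airway share (airway-poor, 2.20% and 4.02%), within each of 4 bins of airway share, and with a library size without airway genes. The values around each metastasis were computed separately, against the same reference spots.

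Across genes, the zone differed from the reference mainly by higher levels. Of 10859 genes with at least 50 counts over both groups, 2800 (25.8%) stood at 1.5 times the reference level or more, and 404 (3.72%) at 1/1.5 or less. The scaling set part of this imbalance, since the median log2 ratio of all genes was 0.33. With airway genes left out of the library size the median was 0.14 and the counts became 1602 higher and 677 lower. In airway-poor spots the median was 0.18, and of the same 10859 genes 2265 were higher and 865 lower. Ratios of gene lists stand against these medians. Of the 8824 genes with at least 100 counts, 2095 were higher and 223 lower, of which 760 and 70 were past 1.5-fold in the same direction in airway-poor spots and around both metastases too. The number of higher genes declined steadily with distance, from 4152 at step 3 to 3087 at step 4, 2291 at step 5, 1436 at step 6 and 507 at step 9, without an edge at the outer limit of the zone. The median log2 ratio of all genes fell along the same steps, from 0.399 at step 3 to 0.241 at step 5 and -0.0535 at step 9. Lower genes numbered 1159 at step 3, 679 at step 5 and 901 at step 9. Steps also differed in depth, from 413812 counts at step 3 to 1044035 at step 9, and counting error carries more genes past 1.5-fold where counts are few. The parts of scaling and of depth in this decline were not tested. In the outer band as a whole 291 genes were higher and 162 lower, fewer of each than at any single step of that band.

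The 15 genes with the highest ratios by the rule included 5 chemokines. Cxcl10 stood at 2.01 CP10k in the zone and 0.129 in the reference, 15.6-fold higher (12.4 to 19.9). Cxcl9 stood at 2.77 and 0.289 CP10k, 9.60-fold higher (8.11 to 11.4). Ccl7 and Ccl2, ligands of the monocyte receptor CCR2, were 11.5-fold (7.82 to 17.3) and 8.31-fold (6.33 to 11.0) higher. Ccl17, a dendritic cell ligand of CCR4, was 6.93-fold higher (4.83 to 10.0), but 5 intermediate spots held 40 of its 78 counts. Macrophage genes formed a further group: Mmp12, the macrophage elastase, was 8.93-fold higher (7.09 to 11.3) and Gpnmb, a glycoprotein of lipid-loaded and phagocytic macrophages, 5.11-fold (3.65 to 7.15). Both were lower in the core than in the zone, with Mmp12 at 0.117 CP10k in the core against 1.42 in the zone and Gpnmb at 0.0293 against 0.502. The remaining highest genes included the guanylate-binding proteins Gbp6 at 8.65-fold (5.89 to 12.9) and Gbp8 at 5.27-fold (3.82 to 7.27), the nucleic acid sensor Zbp1 at 5.10-fold (3.65 to 7.13), the secreted DNase Dnase1l3 at 6.57-fold (4.37 to 9.96), and the replication genes Top2a at 5.70-fold (4.01 to 8.11) and Mcm6 at 5.64-fold (4.01 to 7.94). Bcl2a1b at 6.22-fold and Ly6i at 5.33-fold completed the 15, and their counts, like those of the Gbp genes, are uncertain because close paralogs can share reads.

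**Figure D2:**
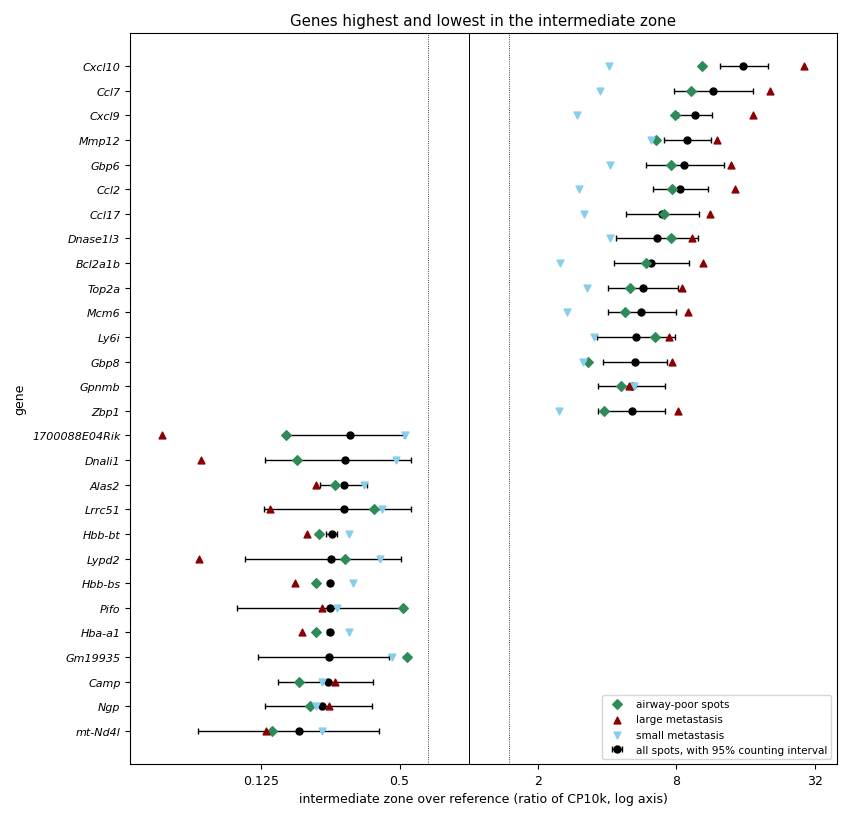
Ratio of CP10k, intermediate zone over reference, on a log axis for the 15 highest and 13 of the 15 lowest genes (Cfd, with 0 counts in the zone, is among those not drawn), with 95% counting intervals in black and the ratios in airway-poor spots and around each metastasis as coloured symbols. Dotted lines mark 1.5 and 1/1.5; Cxcl10 ranges from 4.09 around the small to 28.8 around the large metastasis, whereas Gpnmb is at 5.23 and 4.96.

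Promoter sequences of 5 interferon-γ-responsive genes are shown because the CXCR3 list had the largest ratio and all tested genes of the interferon-γ-induced list were higher. They are the 250 bases before the RefSeq transcription start on GRCm38.p6, written 5′ to 3′ on the gene's strand. Capitals mark the interferon-stimulated response element (ISRE, searched as TTTC or GAAA repeated with any 2 bases between the copies) and the gamma-activated site (GAS, searched as TTCNNNGAA), on both strands.
Cxcl9 (chr5:92328080-92328329, minus strand): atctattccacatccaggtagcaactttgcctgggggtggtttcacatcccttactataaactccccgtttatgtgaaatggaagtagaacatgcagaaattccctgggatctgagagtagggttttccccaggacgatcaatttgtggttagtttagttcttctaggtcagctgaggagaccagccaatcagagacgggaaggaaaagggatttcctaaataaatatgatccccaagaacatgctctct
Cxcl10 (chr5:92348890-92349139, minus strand): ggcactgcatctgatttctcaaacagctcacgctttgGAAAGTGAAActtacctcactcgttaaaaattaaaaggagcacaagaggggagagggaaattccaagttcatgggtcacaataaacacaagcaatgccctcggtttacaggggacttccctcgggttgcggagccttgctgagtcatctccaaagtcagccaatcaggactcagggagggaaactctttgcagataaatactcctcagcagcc
Gbp2 (chr3:142620413-142620662, plus strand): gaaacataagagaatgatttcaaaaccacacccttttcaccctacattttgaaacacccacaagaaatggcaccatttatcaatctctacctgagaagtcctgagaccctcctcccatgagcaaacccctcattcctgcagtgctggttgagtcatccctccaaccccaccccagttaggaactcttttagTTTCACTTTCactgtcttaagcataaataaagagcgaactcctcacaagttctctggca
Igtp (chr11:58199306-58199555, plus strand): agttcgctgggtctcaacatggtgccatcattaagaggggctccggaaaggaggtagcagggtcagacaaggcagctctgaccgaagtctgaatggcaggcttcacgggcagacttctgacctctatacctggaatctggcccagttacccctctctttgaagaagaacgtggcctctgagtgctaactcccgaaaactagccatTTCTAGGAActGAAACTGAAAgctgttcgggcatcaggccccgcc
Irf1 (chr11:53769764-53770013, plus strand): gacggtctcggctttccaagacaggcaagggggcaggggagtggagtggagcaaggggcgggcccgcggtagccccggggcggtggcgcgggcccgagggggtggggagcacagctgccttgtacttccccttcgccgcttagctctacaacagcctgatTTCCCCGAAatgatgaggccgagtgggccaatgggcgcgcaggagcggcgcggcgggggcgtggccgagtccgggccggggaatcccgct
Igtp held both motifs close together without overlap, whereas Cxcl10 and Gbp2 held an ISRE, Irf1 a GAS and Cxcl9 neither in this window. Irf1 has a further RefSeq promoter, not shown, with neither motif. Among promoters of the interferon-γ-induced list, 13 genes with 15 promoters were matched, of which 11 (73.3%) held an ISRE and 7 (46.7%) a GAS. Over all 32851 promoters of the same length the shares were 2.98% and 7.02%. A match is a description of the letters and not evidence of binding.

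The CXCR3 ligands Cxcl9 and Cxcl10, summed with their receptor, had the largest ratio of any list. Their summed level was 4.93 CP10k (4.59 to 5.29) in the zone, 0.448 in the reference and 0.0620 in the control section. Single intermediate spots ranged from 0 to 62.4 CP10k with a median of 2.04, and reference spots from 0 to 14.0 with a median of 0. The groups overlapped, but 54.4% of intermediate spots lay above the 90th percentile of the reference. The signal was concentrated, since without the highest 10% of spots of each group the ratio was 8.48 in place of 11.0 (9.65 to 12.6). Cxcl9 was found in 85 intermediate spots, 5 of which held 157 of its 426 counts, and Cxcl10 in 67. Around the large metastasis the ratio was 19.7 (17.2 to 22.6) and around the small 3.33 (2.68 to 4.11). The receptor Cxcr3 itself had too few counts to be tested.

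Interferon-γ-induced genes were higher as a group. All 19 tested of 24 listed stood past 1.5-fold and none lower, with a median log2 ratio of 1.67 against 0.33 over all genes. Their summed level was 16.9 CP10k (16.3 to 17.6) in the zone and 5.80 (5.63 to 5.98) in the reference, a ratio of 2.92 (2.78 to 3.06). Spots ranged from 1.43 to 101 CP10k with a median of 14.4 in the zone, and up to 61.4 with a median of 5.87 in the reference, and 64.8% of intermediate spots exceeded the reference's 90th percentile. The transcription factor Irf1 stood at 1.67-fold (1.47 to 1.90), and Ciita, the class II transactivator, at 3.17-fold. Among the GTPases Gbp2 stood at 2.90-fold (2.52 to 3.33), Igtp at 3.65-fold (3.01 to 4.43), Iigp1 at 4.71-fold (3.88 to 5.72) and Gbp4 at 4.78-fold. They act inside infected or activated cells and were all past 1.5-fold. The feedback inhibitor Socs1 was at 3.97-fold. In airway-poor spots 18 of the 19 were past 1.5-fold, the exception being Irf1 at 1.45, and Irf1 also stood at 1.14 around the small metastasis. Ifng, the ligand gene, was below the count minimum.

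The antiviral genes more closely tied to type I interferon behaved less uniformly. Of 15 tested, 8 were higher and 3 lower, and their summed ratio was 1.76 (1.64 to 1.89), with 2.58 around the large metastasis and 1.04 (0.925 to 1.17) around the small. The ubiquitin-like modifier Isg15 stood at 2.33-fold and Ifi27l2a at 1.91-fold, but at 1.02 and 0.890 around the small metastasis. In contrast Rsad2, the antiviral enzyme viperin, was at 0.428 (but at 1.11 with the core taken from the top 60 spots), Cmpk2, a mitochondrial nucleotide kinase, at 0.523 and Ifit3b at 0.375 of the reference, whereas Ifit3 stood at 1.21 (0.934 to 1.56) and Ifit1 at 0.927.

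Antigen presentation was higher for both classes. All 10 tested MHC class II genes were past 1.5-fold, at 69.3 CP10k against 30.0, a ratio of 2.31 (2.26 to 2.36). Cd74, the invariant chain, rose from 13.4 to 32.8 CP10k, 2.44-fold (2.36 to 2.52), H2-Ab1 stood at 2.20-fold, H2-Aa at 1.97-fold and the invariant chain protease gene Ctss at 3.95-fold (3.52 to 4.43). The core was lower than the zone for this list, at 1.32 times the reference. MHC class I and immunoproteasome genes were higher in 15 of 17, with a smaller ratio of 1.62 (1.60 to 1.65). This call was lost in airway-poor spots, at 1.41 with 9 of 17 past 1.5-fold, with the library size without airway genes, at 1.44, and around the small metastasis, at 1.27. Nlrc5, the class I transactivator, led with 4.15-fold, followed by the peptide transporter Tap1 at 2.84-fold and the proteasome subunit Psmb8 at 2.16-fold, while H2-D1 at 1.39 and Tapbp at 1.39 did not reach 1.5.

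Macrophage genes were higher, but less so in the alveolar macrophage list. In the list of C1q and interstitial macrophage genes 13 of 14 tested were past 1.5-fold, and the sum rose from 15.9 (15.6 to 16.2) to 33.0 CP10k (32.1 to 33.9), a ratio of 2.08 (2.01 to 2.14). Intermediate spots ranged from 4.85 to 136 CP10k with a median of 27.8, whereas reference spots had quartiles of 8.94 and 21.5 CP10k and a maximum of 85.4. Of the intermediate spots 85.6% lay above the reference median. The complement subunit genes C1qa, C1qb and C1qc stood at 2.06-fold, 2.84-fold (2.54 to 3.18) and 2.52-fold, the lipoprotein gene Apoe at 1.88-fold (1.78 to 1.97), the lipid receptor Trem2 at 2.35-fold and Aif1 at 3.86-fold. Csf1r, the receptor for the macrophage growth factor, was the exception at 1.31 (1.11 to 1.54). All 12 tested Fc receptor and NADPH oxidase genes were higher (2.11, 2.02 to 2.21), with the inhibitory receptor Fcgr2b at 4.57-fold. Alveolar macrophage genes were at 1.14 (1.08 to 1.20), with 3 of 11 past 1.5-fold, a share near the 25.8% of all genes tested. Their median log2 ratio was 0.52 against 0.33 over all genes. This list shares Car4 with the capillary list and Chil3 with the monocyte list. Genes of alternative activation were split: Retnla, a secreted resistin-like protein, stood at 4.85-fold (4.22 to 5.57) and the lectin Mgl2 at 3.41-fold, whereas Arg1, arginase 1, was at 0.658 on only 13 and 93 counts. Of the 422 Retnla counts in the zone, 155 lay in 5 spots. The CCL chemokines were higher in 10 of 11 (3.16, 2.98 to 3.36), among them Ccl6 at 2.46-fold, Ccl5 at 3.53-fold, Ccl12 at 4.26-fold and the receptor gene Ccr2 at 2.58-fold, with Ccr1 the exception at 1.27. The wider monocyte list, which contains Ccr2 too, stood at 1.61 (1.51 to 1.71) and at 1.36 in airway-poor spots, below 1.5.

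Lymphocyte genes were present at low levels and were also higher. T and NK cell genes rose in 9 of 10 tested, from 1.55 to 3.91 CP10k (2.53, 2.28 to 2.79), with Cd4 at 3.86-fold, Trac, the T cell receptor constant chain, at 2.99-fold and Cd8a at 2.26-fold. Of 17 cytotoxic and checkpoint genes 4 had enough counts. Cd274, which encodes PD-L1, was at 2.71-fold among them, and Gzmb, Prf1 and Pdcd1 were below the minimum. B cell genes were past 1.5-fold in 8 of 8 (2.21, 2.00 to 2.45). Plasma cell genes were past it in 6 of 7 (2.85, 2.67 to 3.03), with the J chain gene Jchain at 7.31-fold and Igkc at 4.44-fold (4.03 to 4.89). This list was patchy, with a single intermediate spot at 212 CP10k against a median of 7.05, and its ratio without the highest 10% of spots was 2.17. Dendritic cell genes were higher in 7 of 8 (2.34, 2.14 to 2.56), led by the chemokine Ccl22 at 4.79-fold and Fscn1 of migrating cells at 3.42-fold. Without the spots highest for lymphocyte genes in each group, the interferon-γ-induced list stood at 2.75 and the C1q list at 1.96.

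Replication and division genes were higher in the zone. All 15 tested of 22 listed S phase genes (2.68, 2.49 to 2.88) and all 13 tested of 23 listed mitosis genes (3.52, 3.18 to 3.88) were past 1.5-fold. Among them Mki67 stood at 3.33-fold, Cdk1 at 4.79-fold, Pcna at 2.01-fold and Rrm1, a subunit of ribonucleotide reductase, at 2.21-fold. Unlike the MHC class II and macrophage genes, mitosis genes were highest in the core, at 11.0 times the reference, and fell through the margin at 9.26. The tumour rule genes, which chose the core and so set the distances, stood at 3.30 times the reference at step 4 and 2.26 at step 6. Around the small metastasis, however, they stayed past 1.5-fold only up to step 2, and mitosis genes up to step 6. In spots with no count of Csn3, Etv4, Mmp3 or AA467197 the mitosis ratio was 2.11 and the S phase ratio 2.27. The interferon-γ-induced ratio there was 2.22 and the C1q ratio 1.60. The part of tumour cells in these ratios was not tested.

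Gene lists of resident lung cells were nearer to the reference, and over all spots the summed levels of those of the alveolar wall were lower by less than 1.5-fold. AT2 genes summed to 230 CP10k against 245, a ratio of 0.937 (0.926 to 0.948), with 1.09 around the large and 0.803 around the small metastasis. The genes did not all follow the sum: the median log2 ratio of the 14 tested was 0.17 against 0.33 over all genes, with 1 higher and 0 lower. In airway-poor spots the AT2 ratio was 0.807, and there the large and small metastases were alike, at 0.820 and 0.785. The surfactant genes Sftpc and Sftpb stood at 0.891 (0.878 to 0.904) and 0.892, and Hc, complement C5, was the only AT2 list gene past 1.5-fold, at 2.05. In the core the AT2 list was at 0.109 times the reference. AT1 genes were at 0.807 in the zone and 0.643 in airway-poor spots, capillary genes at 0.787 and 0.626, and no tested AT1 gene and 1 capillary gene, Tmem100 at 0.661, passed the threshold over all spots. In airway-poor spots 7 of 12 AT1 genes and 10 of 15 capillary genes were lower past 1.5-fold, against 865 of all 10859 genes tested. Fibroblast genes were at 0.831 and smooth muscle genes at 0.704, and in airway-poor spots at 0.657 and 0.594. There 2 of 14 fibroblast genes and 7 of 12 smooth muscle genes were lower, and over all spots the median log2 ratio of the fibroblast genes was -0.056. Over all spots 6 of 12 smooth muscle genes were lower, among them Tagln at 0.443. Lipid synthesis genes, which AT2 cells use to make surfactant, were near the reference: the fatty acid synthesis and SREBP-1 target list stood at 1.11 (1.08 to 1.16) with 2 of 20 genes higher, and the cholesterol list at 1.08. Fasn, fatty acid synthase, was at 1.51 (1.34 to 1.69) over all spots but at 1.44 in airway-poor spots. Its regulator Srebf1 was at 1.20 and the desaturase gene Scd1 at 1.10. For the IL-6 family the ligand genes Il6, Lif, Osm and Il11 were below the count minimum and the shared receptor Il6st stood at 1.02. Stat3 was at 1.43, Jak2 at 2.21 and Socs3, a feedback inhibitor induced by this pathway, at 1.80, with 5 of 16 list genes past 1.5-fold, a share near the 25.8% of all genes tested, and 3 in airway-poor spots.

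Of the 15 lowest genes by the rule, Hba-a1, Hbb-bs, Hbb-bt and Alas2 belong to red blood cells, Ngp and Camp to neutrophil granules, and Pifo and Dnali1 to ciliated cells, and mt-Nd4l, a mitochondrially encoded subunit of complex I, stood lowest of those with a count at 0.183 (0.0663 to 0.409), on 6 counts. Red blood cell genes were lower in 7 of 7, at 164 CP10k against 651, a ratio of 0.252 (0.249 to 0.255). Hba-a1 stood at 0.248 (0.243 to 0.253), Hbb-bs at 0.250 (0.246 to 0.254) and Alas2, the erythroid enzyme of haem synthesis, at 0.288 (0.226 to 0.362). The α- and β-globin genes have near-identical copies, so their separate counts are uncertain. The median intermediate spot was at 72.7 CP10k and the median reference spot at 655, although 9.60% of intermediate spots lay above the reference median and the highest reached 3289. The large and small metastases gave 0.184 and 0.312. Neutrophil genes were at 0.746 (0.719 to 0.774) of the reference, with 5 of 12 lower: the granule genes Ngp at 0.230 (0.130 to 0.379), Camp at 0.245 (0.148 to 0.383) and Ltf at 0.318 were among them, S100a8 was at 0.664, and Mmp9 was higher at 1.76-fold. Against the control section the same list was 5.30-fold higher in the zone and 7.10-fold higher in the reference. Cfd, which adipocytes express strongly, had 0 counts in the zone and 102 in the reference, at least 7.22-fold lower against a floor of 3 counts for the zone (upper limit of the ratio's interval, 0.173). However, 5 reference spots held 89 of the 102, and airway-poor reference spots stood at only 0.00806 CP10k, too low to show a difference. Ciliated genes were lower in 11 of 12 and airway secretory genes in 6 of 8, with ratios of 0.427 and 0.558. Around the small metastasis these were 0.747 and 0.982, and around the large 0.0630 and 0.0739.

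**Figure D3:**
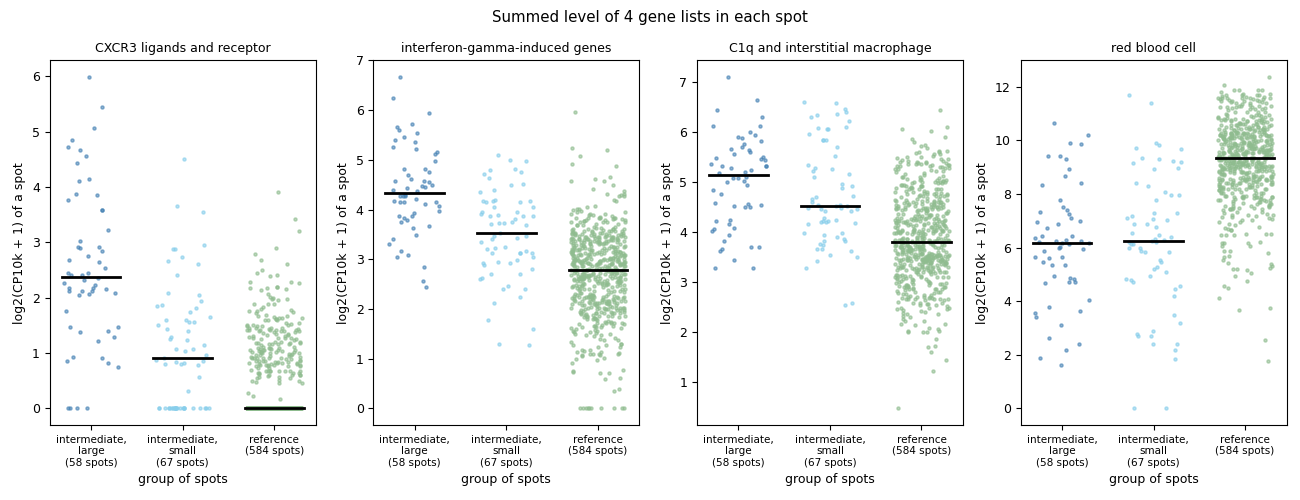
log2(CP10k + 1) of 4 gene lists in each spot of the intermediate zone, nearest the large (58) or small (67) metastasis, and of the reference (584), with black lines at the medians. Medians of the CXCR3 list, interferon-γ-induced genes and C1q list descend from large to small to reference, whereas for red blood cell genes both intermediate groups sit below the reference.

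How far the reaction reached depended on the gene list. Reach was taken as the farthest step up to which every step stood at 1.5 times the reference or more. Of 46 lists 22 had no reach and 2 ended at step 1, whereas 1 ended at step 3, 7 at step 4, 8 at step 5 and 6 at step 6. The interferon-γ-induced genes went from 4.01 times the reference at step 3 to 2.99 at step 4, 2.08 at step 5, 1.37 at step 6 and 0.998 at step 8, and so reached step 5. The CXCR3 list went from 18.9 at step 3 to 4.83 at step 5 and 1.87 at step 6, its last step. C1q and MHC class II genes reached step 5 at 1.59 and 1.63, T and NK cell, plasma cell and mitosis genes step 6, and MHC class I, monocyte, complement and type I interferon genes step 4. No list reached step 7 over all spots at this scaling. With the library size without airway genes C1q genes ended at step 4, MHC class I genes at 3, monocyte genes at 2, dendritic cell genes at 4 and hypoxia genes at 2 in place of 3, lysosome genes had no reach in place of 4, and plasma cell genes reached step 7. Red blood cell genes did not return to the reference level within the range examined, at 0.189 at step 3, 0.293 at step 5 and 0.333 at step 9. The reference was itself graded: the CXCR3 list declined from 0.737 CP10k at 10 to 12 steps to 0.259 at 19 or more. Between the same bands the interferon-γ-induced list fell from 7.23 to 4.23 and red blood cell genes climbed from 446 to 808, while airway share went from 20.3% to 28.4%. The ratios thus depend on the band compared. With the reference begun at 8 or 12 steps they moved little, to 2.89 or 3.04 for interferon-γ-induced genes and 2.10 or 2.12 for C1q genes.

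**Figure D4:**
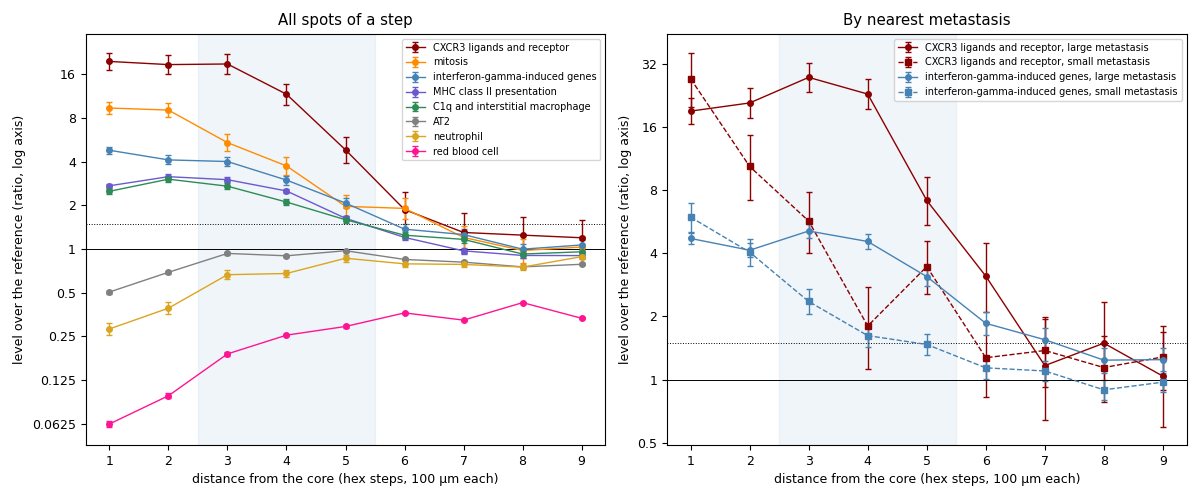
Level over the reference on a log axis against distance from the core in steps of 100 µm, for 8 gene lists over all spots (left) and for 2 lists by nearest metastasis (right), with 95% counting intervals; shading marks the intermediate zone and the dotted line 1.5. Inflammatory lists fall towards 1 across the shaded steps, and the interferon-γ-induced genes fall earlier around the small metastasis (2.36 at step 3) than around the large (5.11).

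The reach also differed between the metastases. Interferon-γ-induced genes were at 5.11, 4.55 and 3.10 times the reference at steps 3, 4 and 5 of the large metastasis and reached step 7. Around the small metastasis they started as high, at 5.94 at step 1 against 4.71, but were at 2.36, 1.62 and 1.47 at steps 3 to 5 and reached step 4. Type I interferon genes reached step 6 around the large metastasis and had no reach around the small. C1q and MHC class II genes, in contrast, reached step 5 around both, and mitosis genes step 6 around both. The small metastasis rested on 1 core spot and its surroundings were richer in airway, so size of the metastasis, position in the section and airway content cannot be told apart.

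Binning by airway share narrowed the difference in airway content without removing it, since airway secretory genes still stood at 0.557 of the reference within the lowest bin. In that bin, up to 2.63% and with 64 intermediate against 114 reference spots, the ratio was 9.02 (7.28 to 11.3) for the CXCR3 list, 2.62 (2.43 to 2.84) for interferon-γ-induced genes and 2.54 for C1q genes. In the next bin, up to 8.71% and with 32 against 145 spots, they were 2.35 (1.63 to 3.35), 1.47 (1.31 to 1.65) and 1.08 (1.00 to 1.16). In the upper bins, with 15 and 14 intermediate spots, the CXCR3 list stood at 1.82 (0.872 to 3.46) and 4.06 (2.48 to 6.48), interferon-γ-induced genes stood at 1.41 (1.17 to 1.70) and 1.32 (1.09 to 1.59) and C1q genes at 1.04 (0.915 to 1.17) and 1.60. Interferon-γ-induced genes were thus above 1 in all 4 bins and past 1.5 in the lowest alone, and C1q genes were past 1.5 in the lowest and the highest bin. Type I interferon genes were not past 1.5 in any bin, at 1.28, 1.36, 1.02 and 0.730. Red blood cell genes were below 1/1.5 in all 4, at 0.109, 0.445, 0.294 and 0.213. Intermediate spots of the large metastasis were nearly all airway-poor (55 of 58), so the bins also divide the metastases. Within airway-poor spots the interferon-γ-induced ratio was 2.92 (2.74 to 3.11) for the large and 1.72 (1.57 to 1.89) for the small metastasis.

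**Figure D5:**
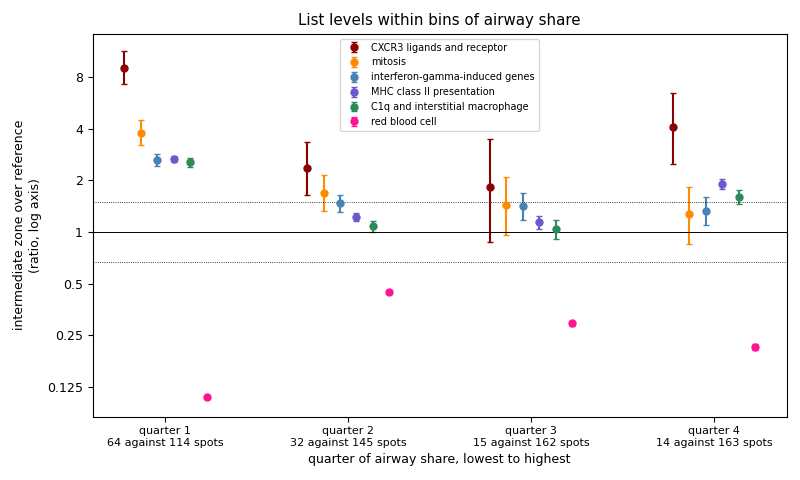
Ratio of 6 gene lists, intermediate zone over reference, on a log axis within 4 bins of airway share from lowest to highest, with 95% counting intervals and the number of spots of each group under each bin. The lowest bin holds 64 intermediate spots and, for the 5 lists above 1, their highest ratios, and red blood cell genes are below the lower dotted line (1/1.5) in every bin.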

How the data were processed

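Polyadenylated RNA was measured by Visium in 1 metastatic and 1 control lung section. Per the submitters' processing notes the reads were processed with Space Ranger 1.3.1 on mm10, and the deposited values are the authors' counts (unique molecules of a gene in a spot), not normalized. Position files placed spots on the array, and image scale factors were not used. Grouping of the sections followed the labels; the zones, the members and all gene lists were chosen with earlier results of these data known.

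Counts were summed over the spots of a group and divided by the group's total to give CP10k, with exact 95% Poisson intervals. Intervals of ratios came from the exact binomial limits on the share of counts falling in the zone, and for log2 ratios 0.5 counts were added. A gene needed 50 counts over both groups, and called means past 1.5-fold, since with 1 section per condition no p-value was computed. This minimum pools the groups, so a gene could pass it through the group where it is high. The metastases were core spots chained within 3 steps. Named genes had at least 100 counts and passed 1.5-fold the same way over all spots, in airway-poor spots and around both metastases. The 15 highest and 15 lowest were taken, without immunoglobulin variable segments and the core rule genes, and beside them the 4 most counted members of each of 46 lists. Other list members were named after their values were seen, as were the genes given as exceptions. The median intermediate spot held 11058 counts, so single genes were read from sums. Some genes are not reported here. Ratios were checked on simulated data. Python 3.11.15, numpy 2.4.6, scipy 1.17.1, pandas 2.3.3 and matplotlib 3.10.9 were used. Promoters were those of RefSeq on GRCm38.p6. Alternatives varied the library size, airway content, core size, reference distance, depth, averaging, steps, metastasis, spots left out, count minimum and fold.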

Additional observations from a re-analysis of the deposited data

How the results depend on the processing

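Of 4850 values of named genes and lists under 18 alternatives, 2974 stayed within the counting interval of the value reported and 1867 left it in the same direction from 1 or without being called. Those called that reversed were C3 (0.961), Hp (1.02), Ifi27l2a (0.890) and Msln (0.525) around the small metastasis, Msln (0.885, and 0.869 with the library size without airway genes) in airway-poor spots, and Ighg1 (0.858), Nupr1 (0.919) and Rsad2 (1.11) with the core from the top 60 spots. The interferon-γ-induced ratio (2.92) was 2.58 with a library size without airway genes, 2.49 in airway-poor spots and 2.45 with both, 4.37 and 1.86 with the core taken from the top 60 or 100 spots, 2.75 with spots thinned to 5000 counts, 2.69 as a mean of spots, 4.30 and 1.70 around the large and small metastasis, 4.01 at step 3 and 2.08 at step 5, 2.75 without the spots highest for lymphocytes and 2.22 without spots holding tumour rule genes other than Myc. The C1q ratio (2.08) was, in the order of the same settings where it moved, 1.84, 1.90 and 1.86, then 2.88 and 1.70, 2.55 and 1.66, 2.71 and 1.59, 1.96 and 1.60. All of these stayed above 1.5. Higher genes (2800) numbered 1602 without airway genes in the library size, 1615 in airway-poor spots, 1491 with both, 4164 and 1455 with the top 60 and 100, 4220 and 1770 around the large and small metastasis, 3932, 2891 and 2134 at steps 3, 4 and 5, 1234 with at least 200 counts and 771 at 2-fold. The count minimum was applied to the spots of each setting, so counts at single steps and in airway-poor spots differ from those given above. Lower genes (404) numbered 677 without airway genes in the library size, 1693 and 203 with the top 60 and 100, 637 and 666 around the large and small metastasis, 1100, 796 and 618 at steps 3, 4 and 5, 1010 with at least 10 counts, 129 with at least 200 and 148 at 2-fold. The count minimum, the fold and the smaller groups change these numbers by their own construction, and the causes of the other shifts were not tested.

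The top 60 gave a zone of 51 spots with 884 reference spots, and the top 100 a zone of 154 with 501. With 1 section per condition, animals and sections were not replicated, and intervals omit variation between spots and mice. The alternatives with spots without tumour rule genes, without detached spots and airway-poor spots with the reduced library size were chosen after seeing the data. No paired analysis was possible because the zone and the reference were spots of 1 section from 1 mouse. Genes under 50 counts, among them Ifng and Cxcr3, were beyond this depth.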

Other observations

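Several smaller programmes of the intermediate zone moved apart from the immune lists. Metallothioneins were higher, Mt2 at 2.79-fold and Mt1 at 1.59-fold, within a glucocorticoid and metallothionein list that stood at 1.14. The glycolytic genes Gapdh and Pkm were both at 1.60-fold, whereas Aldoa stood at 1.24 and Vegfa, the hypoxia-induced angiogenic factor, at 1.10. Among adhesion molecules Vcam1, which leukocyte integrins bind, was at 3.11-fold and Icam1 at 1.24. Timp1, an inhibitor of matrix metalloproteinases, was at 3.21-fold, while the matrix gene Sparc was at 0.999 and the matrix list at 1.19. Genes of transitional alveolar epithelium stood at 1.64 with 3 of 11 higher and 1 lower, a share near that of all genes tested, and at 1.45 with the library size without airway genes and 1.36 around the small metastasis, with Lgals3 at 2.32-fold and Nupr1 at 1.54-fold (0.919 with the core taken from the top 60 spots) but Krt8 at 1.13.

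Saa3, a serum amyloid, fell off closer to the core. It was at 13.5 times the reference in the margin and 1.47 in the intermediate zone, and at 0.280 around the small metastasis. The serum amyloid and acute-phase list did not share this fall, at 1.27 in the margin, 0.863 in the zone and 1.24 in the outer band. The scavenger receptor gene Marco was at 12.1 in the margin and 1.33 in the zone.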
